A study of Oryza sativa with 32 samples.

Results

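Ty1-copia elements are one of the large groups of LTR retrotransposons, mobile elements that are framed by long terminal repeats and move through an RNA copy. The RNA is turned into DNA by the reverse transcriptase of the element and inserted at a new site by its integrase, so that the old copy stays in place. Ty3-gypsy elements, the other large group, carry the same enzymes but have the integrase behind the reverse transcriptase, whereas in Ty1-copia elements it lies in front. In plant genomes most copies are old, truncated or nested, and LTR retrotransposons are known to accumulate around centromeres.

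Ty1-copia loci were taken from the MSUv.7 annotation of the Nipponbare genome, which is the file deposited with the RNA-seq libraries of the study. A locus was counted when its representative gene model carried the mark of a transposable element (TE) and a description that names the Ty1-copia subclass. This gave 772 loci of 55986 in all. They made up 4.56% of the 16937 TE loci and were set against the other 16165 TE loci and against the 3702 Ty3-gypsy loci, which outnumbered them 4.80-fold. All 772 loci carry the same description, a putative retrotransposon protein of the Ty1-copia subclass, and differ only in whether the word expressed follows it. They hold 773 gene models, and LOC_Os11g17504 on chromosome 11, 4913 bp long, is the only locus with 2.

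The study sampled rice roots with Al (80 μM activity for 4 hr) and under control conditions. The genotypes were the near-isogenic line (NIL) AZU[IR64121] with its recurrent parent Azucena (tropical japonica), and the NIL IR64[AZU12.1] with its recurrent parent IR64 (indica). For the first of these NILs the study mostly writes AZU[IR6412.1]. Each NIL carries a segment of chromosome 12 from the other parent and stands for 1 line. With 4 biological replicates in each of 8 groups there are 32 libraries, but the annotation holds 0 columns with values of a library, so no expression level and no depth is given here. Nipponbare, a temperate japonica variety, is not one of the 4 genotypes, and the positions below are those of its genome. The counts cover the complete list, which has no replicates. The spread over the 12 chromosomes is given in place of a replicate error, and no test was run, since chromosomes and loci are not replicates of a condition.

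Ty1-copia loci were found on all 12 chromosomes and on none of the unplaced sequences. Chromosome 12, which carries *ART1*, held the most, 86 loci or 11.1% of them on 7.38% of the annotated length. Chromosome 1 followed with 81 loci, and chromosome 6 with 74. The fewest were on chromosome 9, with 39 loci, and chromosome 10, with 43. Per Mb of annotated length, the density averaged 2.09 ± 0.436 loci (SD over 12 chromosomes), from 1.51 on chromosome 3 to 3.12 on chromosome 12. The next highest density was 2.43 loci per Mb on chromosome 8, so that chromosome 12 stood apart from the other 11. For other TE loci the density averaged 44.3 ± 7.99 loci per Mb, and its lowest and highest values lay on the same chromosomes, 31.0 on chromosome 3 and 54.1 on chromosome 12. The range was 2.07-fold for Ty1-copia loci and 1.75-fold for other TE loci. Relative to all TE loci of a chromosome, the Ty1-copia share ran from 3.40% on chromosome 9 to 5.55% on chromosome 1, and chromosome 12 had 5.46%. Over the 12 chromosomes the densities of Ty1-copia and other TE loci were related with a Pearson's r of 0.580 and a Spearman's rho of 0.385. Without the 2 chromosomes farthest from the median density of other TE loci, r was 0.438. These are descriptions over chromosomes that share 1 annotation.

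**Figure D1:**
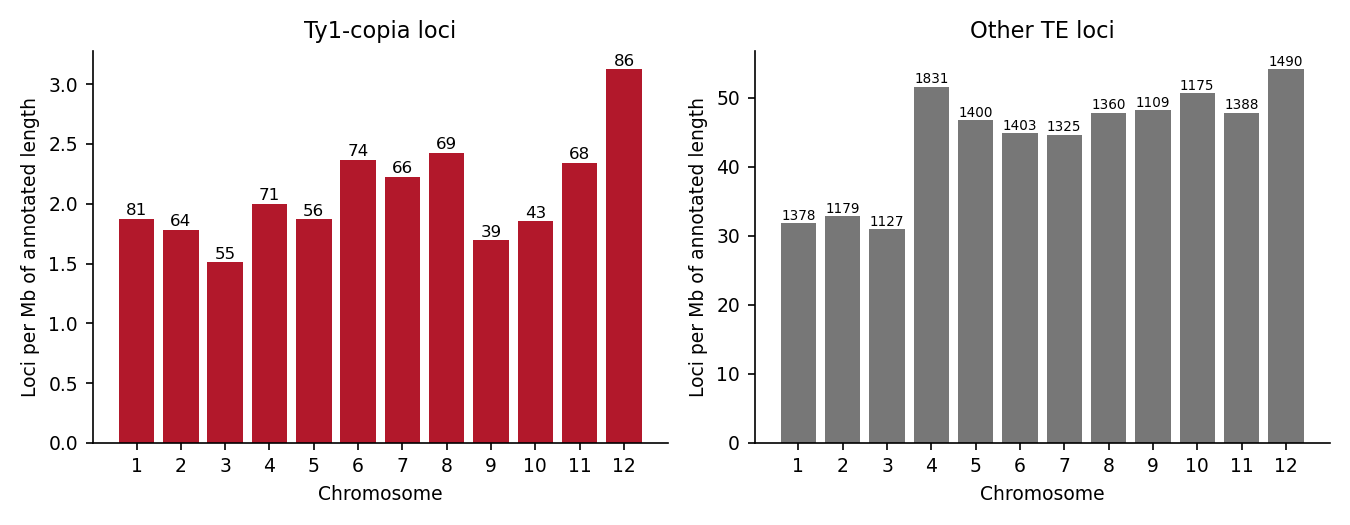
Density of Ty1-copia loci (left) and of other TE loci (right) on the 12 chromosomes, in loci per Mb of annotated length; the number above each bar is the number of loci. Chromosome 12 is highest in both, with 3.12 Ty1-copia loci and 54.1 other TE loci per Mb.

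Along the chromosomes, Ty1-copia loci were thinly and unevenly spread. Of 368 full bins of 1 Mb, 69 (18.8%) held no Ty1-copia locus and 106 held 1, while 0 bins lacked other TE loci and 23 lacked Ty3-gypsy loci. The bins held a mean of 2.08 ± 1.91 Ty1-copia loci (SD over bins) and 43.6 other TE loci. The 44 bins with 5 or more Ty1-copia loci together held 269 of them. The densest bin, with 10 loci, was chr12:8000001-9000000, from LOC_Os12g14120 to LOC_Os12g15300. It also held 76 other TE loci and 61 non-TE loci, and 7 of the 10 were marked as expressed. The bin chr7:9000001-10000000 followed with 9 loci, from LOC_Os07g15780 to LOC_Os07g16990, of which 1 was on the plus strand. With 8 loci each came the bins that open at 8000001 on chromosome 8 (LOC_Os08g13860 to LOC_Os08g14340), at 9000001 on chromosome 10 (LOC_Os10g18190 to LOC_Os10g19338), at 9000001 on chromosome 11 (LOC_Os11g16610 to LOC_Os11g17760) and at 14000001 on chromosome 12 (LOC_Os12g24690 to LOC_Os12g25734). All 8 were marked as expressed in the bins of chromosomes 8 and 11, against 4 of 8 in that of chromosome 10.

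Over the 368 bins, the number of Ty1-copia loci was related to that of other TE loci with a Spearman's rho of 0.395, and within single chromosomes rho ran from -0.00395 to 0.663 and was above 0 on 11 of 12. With non-TE loci, rho was -0.416 for Ty1-copia, against -0.761 for Ty3-gypsy and -0.886 for all other TE loci. Bins are not independent, and a bin with few Ty1-copia loci gives a coarse value, so these are descriptions. When the bins were ranked by their number of non-TE loci and split into 3 sets of 122 or 123 bins, the gene-poor set (16 to 90 non-TE loci per bin) held 50.3% of the Ty1-copia loci, 67.6% of the Ty3-gypsy loci and 55.1% of the other TE loci. The gene-rich set (122 to 165 per bin) held 19.1% of the Ty1-copia loci, against 11.7% of the Ty3-gypsy loci and 17.4% of the other TE loci.

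**Figure D2:**
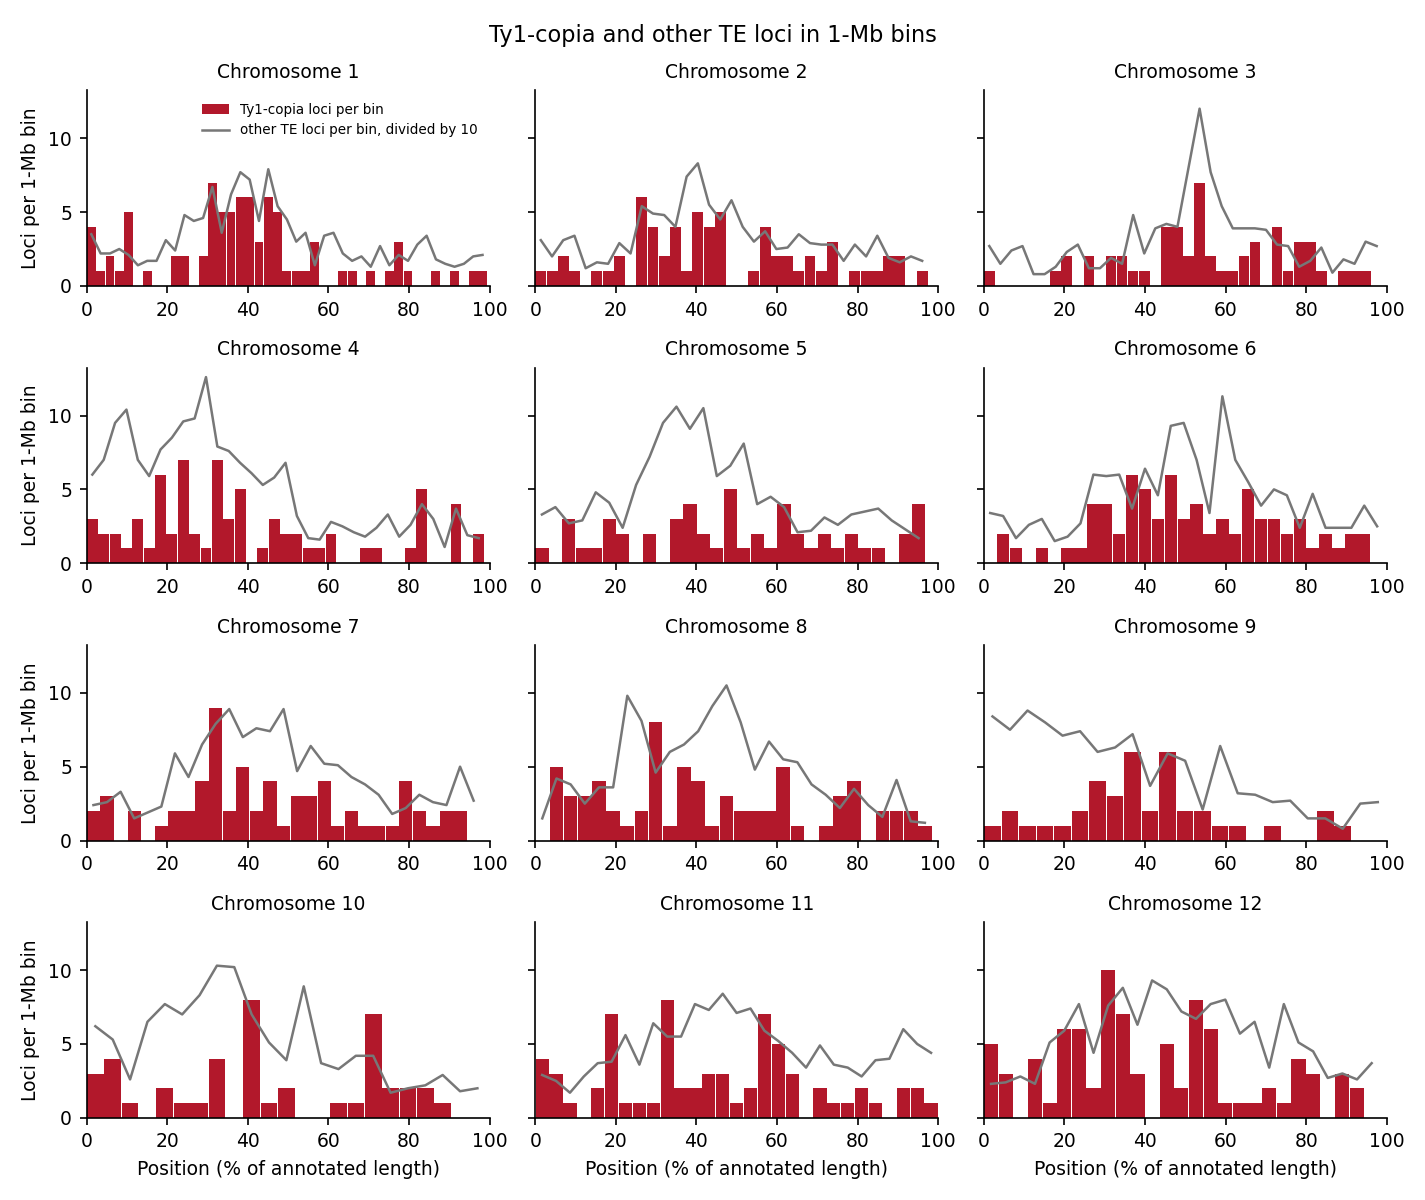
Ty1-copia loci (red bars) and other TE loci divided by 10 (grey line) in each full 1-Mb bin, by position in percent of the annotated length of the chromosome; the last incomplete bin is left out. The bars are highest at 10 loci on chromosome 12, and 69 of the 368 bins have none.

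The position along the arm was close to that of other TE loci. The outer 10% of the annotated length at both ends held 14.4% of the Ty1-copia loci and 14.5% of the other TE loci, and the Ty1-copia share was the higher one on 6 of 12 chromosomes. The stretch from 30% to 40% of the annotated length held most, with 148 Ty1-copia loci (19.2%), against 15.3% of the other TE loci. As a marker of the centromere from the same list, the median position of the 618 loci described as centromere-specific retrotransposons was taken for each chromosome. Within 2 Mb of it lay 151 Ty1-copia loci (19.6%), against 23.7% of the other TE loci. The other TE loci include the 618 loci that set the marker, 324 of which lay within 2 Mb of it. Without them the share of other TE loci was 22.6%, and the Ty1-copia share was the lower one on 8 of 12 chromosomes, by less than the spread (-2.98 ± 5.84 percentage points, mean and SD). The median distance was 5.04 Mb for Ty1-copia, against 4.98 Mb for other TE loci with the 618 and 5.15 Mb without them. Per chromosome these medians differed by 0.216 ± 1.48 Mb (mean and SD of Ty1-copia minus other TE loci over 12 chromosomes), with the 618 counted and Ty1-copia farther out on 6, so the difference was smaller than its spread. Ty3-gypsy loci taken alone lay nearer to the marker, with 30.2% within 2 Mb and a median distance of 3.72 Mb.

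Ty1-copia loci had a higher median length than other TE loci, and many of their lengths fell into a few narrow classes. The median length, over all gene models of a locus, was 3747 bp (quartiles 1833.75 and 4306.5 bp) for Ty1-copia and 2845 bp (1384 and 4472 bp) for other TE loci. Ty1-copia had the higher median on 12 of 12 chromosomes, by 885 ± 188 bp (mean and SD). The upper quartile was nevertheless the lower one, 4306.5 bp against 4472 bp, and 8.29% of the Ty1-copia loci exceeded 6000 bp, against 18.2% of the Ty3-gypsy loci. Lengths from 3001 to 5000 bp made up 24.9% (3001 to 4000 bp) and 21.6% (4001 to 5000 bp) of the Ty1-copia loci, where the other TE loci had 16.7% and 8.97%. In classes of 200 bp, 99 Ty1-copia loci (12.8%) fell between 4201 and 4400 bp and 84 (10.9%) between 3801 and 4000 bp. The fullest class of Ty3-gypsy loci held 6.67% of them and that of all other TE loci, which pool several TE classes, 5.23%. By quartiles Ty1-copia was not the most concentrated class. The CACTA loci, a class of DNA transposons, had quartiles closer together, at 2232 and 3848 bp.

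**Figure D3:**
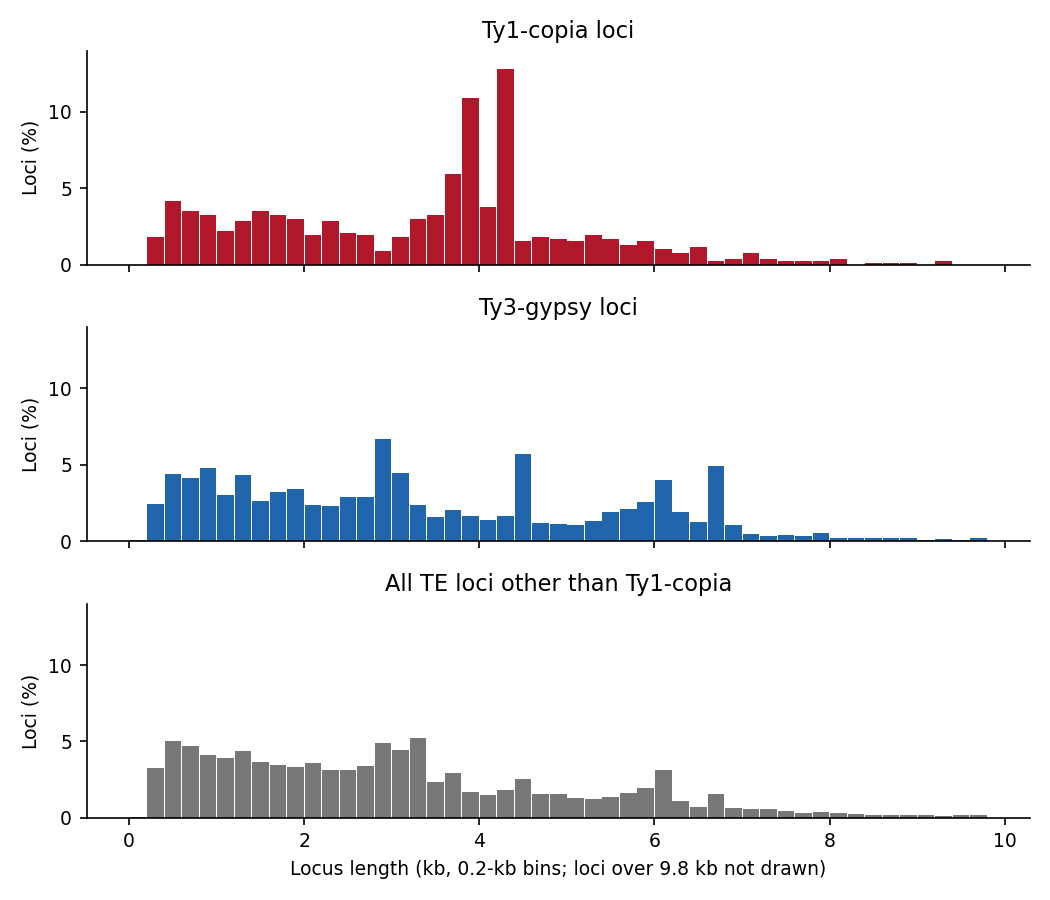
Share of loci by length in classes of 0.2 kb for Ty1-copia, Ty3-gypsy and all TE loci other than Ty1-copia. Ty1-copia loci have their highest bar at 4201 to 4400 bp (12.8%) and a second one at 3801 to 4000 bp (10.9%), while no bar of the other sets exceeds 6.67%.

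A single length stood out. Exactly 4223 bp was the length of 35 loci (4.53% of the Ty1-copia loci), and a further 11 loci were within 1 to 5 bp of it. The commonest length took 0.702% of the Ty3-gypsy loci (26 loci of 6111 bp), 2.39% of the CACTA loci (50 loci of 3333 bp) and 0.915% of the other or unclassified retrotransposons. CACTA elements are DNA transposons, which are cut out and moved without an RNA copy. The 35 loci lay on all 12 chromosomes, with 8 on chromosome 1 and at least 1 on each, and the closest pair was 0.136 Mb apart. Examples are LOC_Os01g08480, LOC_Os04g47600, LOC_Os07g02510, LOC_Os10g36720 and LOC_Os12g23730, which were picked after their values were seen. All 35 were marked as expressed, and so were 127 of the other 132 loci between 4001 and 5000 bp. Their surroundings differed from those of the remaining 737 Ty1-copia loci, as a description with no test. Their median distance from the centromere-specific loci was 10.3 Mb, against 4.97 Mb. Both neighbouring loci were non-TE loci for 27 of the 35 (77.1%), against 263 of 737 (35.7%). Of the 10 nearest loci on the list, 5 on each side, 22.0% were TE loci for the 35, against 39.2% for the 737. The gap to the nearest non-TE locus had medians of 2995 and 3167 bp. Against only the other 132 loci between 4001 and 5000 bp, which are of like length, the 35 had the wider gap, 2995 bp against 2076.5 bp. In that set the median distance from the centromere-specific loci was 5.96 Mb, both neighbours were non-TE loci for 67 of 132 (50.8%), and 32.7% of the 10 nearest loci were TE loci. The length was singled out after the lengths were seen, and whether these loci share a sequence was not tested, since no MSUv.7 sequence was used here. The next most frequent lengths were 3909 bp with 9 loci on 7 chromosomes and 4242 bp with 8 loci on 6.

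The extremes lay far from these lengths. The longest locus was LOC_Os08g39174 on chromosome 8 with 16686 bp, followed by LOC_Os03g64080 with 15359 bp and LOC_Os05g49540 with 13511 bp, and all of them were marked as expressed. The shortest were LOC_Os04g22250 and LOC_Os12g18620 with 237 bp each and LOC_Os06g45700 with 252 bp. None of these short loci was marked as expressed. Summed over all members, Ty1-copia loci covered 2.71 Mb, against 51.9 Mb for the other TE loci.

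The annotation marked 594 Ty1-copia loci (76.9%) as expressed and 178 as not expressed, against 12242 of the 16165 other TE loci (75.7%) and 93.5% of the non-TE loci. The mark belongs to the annotation and was not made from these root libraries. Over the chromosomes the Ty1-copia share was 76.6 ± 4.78% (mean and SD, n = 12), from 67.4% on chromosome 10 to 82.6% on chromosome 8. For other TE loci it was 75.9 ± 2.09%. Ty1-copia was higher on 8 of 12 chromosomes, and the difference of 0.768 ± 5.50 percentage points was smaller than its spread. The mark followed length. Of the 98 loci of up to 1000 bp, 35 (35.7%) were marked as expressed, and of the 114 loci from 1001 to 2000 bp, 57 (50%) were. The share was 89.1% from 3001 to 4000 bp and 97.0% from 4001 to 5000 bp. Other TE loci had a like order, with 45.2%, 59.3%, 89.5% and 91.6% in the same classes. The Ty1-copia share was the lower one in each length class except that from 4001 to 5000 bp. When the other TE loci were weighted to the length classes of the Ty1-copia loci, 79.9% of them were marked as expressed, which turned the difference to -2.91 percentage points. When the last word of the description was read in place of the mark, the difference was 4.27 percentage points, since mark and description conflict for 494 of the other TE loci and for 0 Ty1-copia loci.

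**Figure D4:**
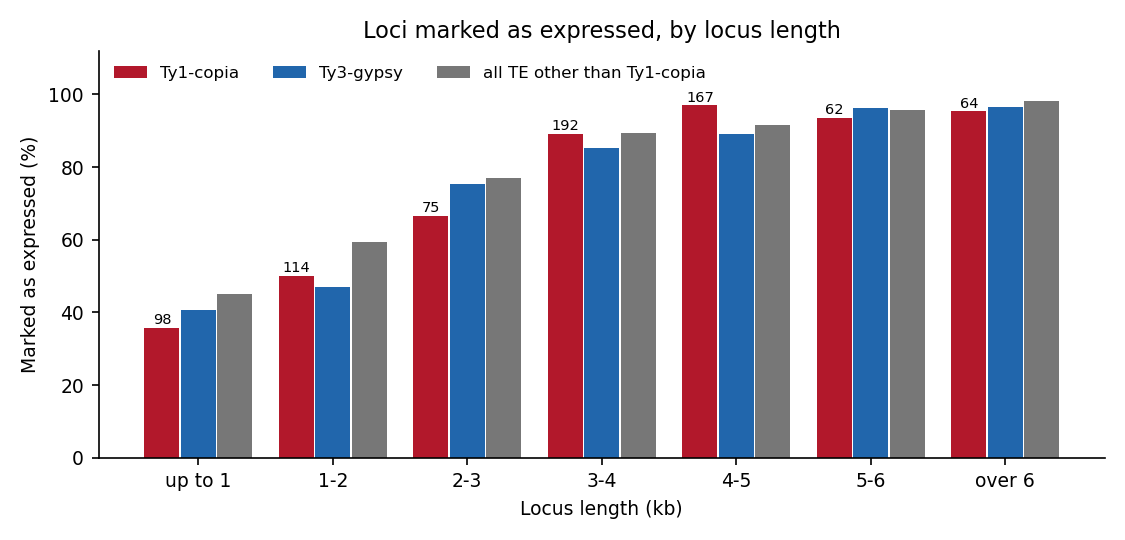
Share of loci marked as expressed by locus length in kb, for Ty1-copia, Ty3-gypsy and all TE loci other than Ty1-copia; the numbers are the numbers of Ty1-copia loci. The Ty1-copia share is 35.7% up to 1 kb and 97.0% from 4 to 5 kb, and the other sets climb in a like way.

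Marked and unmarked members also differed in where they lay. The 594 loci marked as expressed had a median length of 3969 bp and the 178 others 1439 bp. The median distance from the centromere-specific loci was 5.53 Mb for marked and 3.99 Mb for unmarked loci, and the mean share of TE loci among the 10 nearest loci was 35.7% and 47.3%. Among other TE loci the marked ones were also farther out, at 5.21 Mb against 4.32 Mb. By gene density, 70.6% of the Ty1-copia loci were marked in the gene-poor bins and 86.3% in the gene-rich bins. For Ty3-gypsy loci the values were 73.5% and 70.7%, and for all other TE loci 72.4% and 81.1%. The median length of Ty1-copia loci also moved between these sets of bins, 3436 bp in the gene-poor and 3983.5 bp in the gene-rich ones, and its part in the share was not tested.

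Ty1-copia loci lay closer to non-TE loci than other TE loci did. The gap between the ends of a locus and those of the nearest non-TE locus, on either strand, had a median of 3166.5 bp for Ty1-copia (quartiles 1627 and 6834 bp). For other TE loci it was 5110 bp (2138 and 10995 bp), 1.61-fold longer, and for Ty3-gypsy loci 8560 bp, 2.70-fold longer. The Ty1-copia median was the lower one on 12 of 12 chromosomes in both comparisons. Per chromosome it was 1775 ± 833 bp below that of other TE loci (mean and SD). Its lowest value was 2499.5 bp on chromosome 11 and its highest 4597 bp on chromosome 10. The sets differed least at the narrowest gaps. Within 1 kb of a non-TE locus lay 11.5% of the Ty1-copia loci and 10.5% of the other TE loci, within 2 kb 31.5% and 23.2%, and within 5 kb 66.6% and 49.3%. Gaps over 20 kb were found for 3.63% of the Ty1-copia loci, against 11.0% of the other TE loci and 20.9% of the Ty3-gypsy loci. Among the TE classes Ty1-copia was not the closest to genes, since Mutator loci, a class of DNA transposons with 59 members, had a median gap of 1607 bp and the mixed class of other TE loci, most of them described as unclassified transposon proteins, 2514.5 bp.

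The order of Ty1-copia, all other TE loci and Ty3-gypsy was the same at each gene density. In the gene-poor bins the median gap was 4279 bp for Ty1-copia, 7110 bp for other TE loci and 10466 bp for Ty3-gypsy. In the gene-rich bins it was 1978 bp for Ty1-copia, 2836 bp for other TE loci and 5150 bp for Ty3-gypsy. The loci farthest from any non-TE locus were LOC_Os05g20670 on chromosome 5, with a gap of 48183 bp, LOC_Os07g26340 on chromosome 7, with 42350 bp, and LOC_Os04g19380 on chromosome 4, with 41699 bp. All of the 10 nearest loci of each were TE loci.

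**Figure D5:**
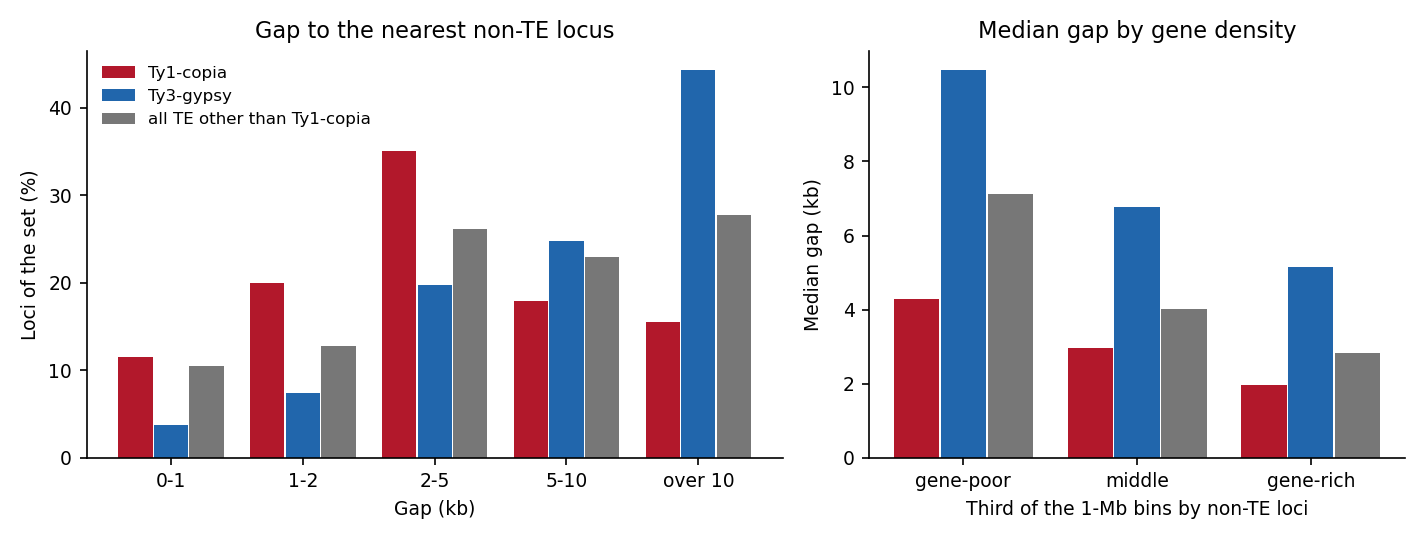
Left, share of loci by the gap to the nearest non-TE locus in kb; right, median gap in kb in the gene-poor, middle and gene-rich sets of 1-Mb bins, for Ty1-copia, Ty3-gypsy and all TE loci other than Ty1-copia. Ty1-copia loci have the shortest median gap in each set of bins, 4279 bp where genes are fewest and 1978 bp where they are most frequent.

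The loci next to a Ty1-copia locus on the list showed the same order. Of the 1544 neighbours, 918 (59.5%) were non-TE loci, against 41.9% for other TE loci and 25.7% for Ty3-gypsy loci. Non-TE loci made up 69.6% of all loci on the 12 chromosomes. Both neighbours were non-TE loci for 290 Ty1-copia loci (37.6%), against 21.0% of the other TE loci. A further 232 neighbours (15.0%) were themselves Ty1-copia loci, which made up 1.38% of all loci. Ty3-gypsy loci accounted for 95 neighbours (6.15%), a share close to their 6.63% of all loci.

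Ty1-copia loci with no other locus between them formed 100 runs with 216 loci (28.0%), and 556 loci stood alone. Of the Ty3-gypsy loci 65.9% were in such runs and of the CACTA loci 63.8%, but these classes have more loci. The mixed class of other TE loci also has more, 2772, and 21.4% of them were in runs. The part of class size in these shares was not tested. Runs of 2 numbered 85 and runs of 3 numbered 14. The longest, with 4 loci in 26267 bp, reached from LOC_Os08g28020 to LOC_Os08g28050 on chromosome 8, and its loci were 598 to 3093 bp long. The most compact runs of 3 were LOC_Os01g25960 to LOC_Os01g25980 in 8200 bp on chromosome 1 and LOC_Os12g06580 to LOC_Os12g06600 in 8284 bp on chromosome 12. In 84 of the 100 runs all loci were on the same strand, and the gaps inside runs had a median of 1281 bp. The strands in runs of other TE classes were not compared. Neighbouring loci of this kind can be separate insertions or pieces of 1 element, and which of these they are was not tested.

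By strand, 357 Ty1-copia loci (46.2%) were on the plus and 415 on the minus strand, against 49.3% of the other TE loci on the plus strand. The Ty1-copia share was the lower one on 10 of 12 chromosomes, all but chromosomes 2 and 12, and ran from 39.7% on chromosome 11 to 53.5% on chromosome 12. The difference of -3.25 ± 3.80 percentage points (mean and SD over chromosomes) was smaller than its spread. Relative to the nearest non-TE locus, 50.3% of the Ty1-copia loci were on the same strand, against 46.9% of the other TE loci, and 53.4% lay upstream of it, against 53.5%.

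The span of 6 Ty1-copia loci (0.777%) overlapped a non-TE locus, against 75 of the other TE loci (0.464%). The largest overlap, 5282 bp, was that of LOC_Os08g39174, the longest member, with the wall-associated kinase gene *OsWAK73* (LOC_Os08g39180) on the same strand. The other members with an overlap were on the opposite strand of their partner. LOC_Os04g26480 shared 810 bp and LOC_Os01g60309 shared 380 bp with loci described only as expressed protein. LOC_Os02g16470 shared 169 bp with LOC_Os02g16480, described as nucleolar transcription factor 1, a protein known for the transcription of ribosomal RNA genes. LOC_Os03g39400 overlapped its partner by 59 bp, and 1 further member overlapped a locus by 7 bp. No Ty1-copia locus overlapped another TE locus, and only 53 of the 16165 other TE loci did, so such overlaps were rare in both sets.

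In the 2000 bp upstream of the representative gene model, 127 of the 38864 non-TE loci on the chromosomes (0.327%) had at least 1 bp of a Ty1-copia locus, by a median of 625 bp. Relative to the size of the class, 123 Ty1-copia loci (15.9%) reached into such a window, against 12.3% of the other TE loci, 5.40% of the Ty3-gypsy loci and 12.4% of the CACTA loci. Mutator loci and the mixed class of other TE loci were not counted on their own in these windows. By the gap on either side, more of them lay within 2 kb of a non-TE locus, 57.6% and 41.8%, against 31.5% of the Ty1-copia loci.

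The 10 genes looked up were 7 named genes of Al resistance, *ART1* among them, and 3 loci without a gene name that the study takes up as regulated by ART1. None of the 7 named genes had a Ty1-copia locus within 10 kb, and 1 of the 3 loci had, against 3.44% of all non-TE loci. This was LOC_Os04g41750, a putative ART1-regulated gene that the annotation describes only as expressed protein. LOC_Os04g41730, a Ty1-copia locus of 3656 bp on the minus strand at chr4:24734341-24737996, lay 6700 bp upstream of it and was its nearest TE locus of any class. A non-TE locus described as expressed protein, LOC_Os04g41740, began between them, with a gap of 2706 bp to the Ty1-copia locus. Of the 10 genes, LOC_Os01g53090 came next, with a Ty1-copia locus at 32.8 kb. For the other 8 genes the nearest Ty1-copia locus was 133 kb or farther away. *STAR1*, which encodes a part of an ABC transporter needed for Al tolerance, had a gap of 133 kb, and *OsFRDL4*, which encodes the citrate transporter, had a gap of 753 kb. The median of the 10 genes was 236 kb, against 231 kb for all non-TE loci, so that the list did not stand apart.

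*ART1* itself (LOC_Os12g07280), which encodes the zinc finger transcription factor behind Al resistance, had unequal distances to the Ty1-copia loci on its sides. On its left the nearest one was LOC_Os12g07000, a locus of 288 bp on the minus strand that was not marked as expressed, at a distance of 152 kb with 24 loci in between. On its right it was LOC_Os12g09400, of 4113 bp on the plus strand, 1343 kb away with 200 loci in between, 50 of them TE loci. The introgressed segment of AZU[IR64121] overlapped 11 Ty1-copia loci among 177 TE loci (6.21%), from LOC_Os12g06580 to LOC_Os12g10890, and 4 of the 11 were marked as expressed. That of IR64[AZU12.1] overlapped 6 among 66 TE loci (9.09%), with 3 marked as expressed. In the part common to both there were 4, namely the compact run from LOC_Os12g06580 to LOC_Os12g06600 and LOC_Os12g07000, between 288 and 1989 bp long. Of these 4, 1 was marked as expressed. On the whole of chromosome 12, Ty1-copia loci made up 5.46% of the TE loci, and 72.1% of them were marked as expressed. Per Mb, the segment of AZU[IR64121] held 2.80 and that of IR64[AZU12.1] 2.53 Ty1-copia loci, against 3.12 on chromosome 12. The segments were thus not denser in Ty1-copia loci than the chromosome, and their counts are small.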

How the data were processed

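RNA-seq was performed by the authors on roots of 4 genotypes under Al and control conditions, in 8 groups of 4 biological replicates. Reads were cleaned with Trimmomatic, ribosomal reads were removed with Bowtie and the rest was aligned with HISAT; versions are not given in the sources used here. The file that the authors deposited is the MSUv.7 annotation. Its values are positions in bp and Y or N marks per gene model, with 0 columns of single libraries, so libraries were grouped from their titles but not compared. How the marks were assigned is not given in the sources used here.

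The span of a locus covered all its gene models. It took its class from the representative gene model and was counted as expressed when any gene model was marked. TE classes were assigned by description, in the order Ty1-copia, Ty3-gypsy, other or unclassified retrotransposon, CACTA, Mutator and other TE. The gap between 2 loci was 0 where they overlapped. The 10 nearest loci were the 5 on each side in the order of the list, or fewer at the end of a chromosome. Loci were placed in bins of 1 Mb by their midpoint, and chromosome length was the last annotated position. The centromere was approximated by the median midpoint of loci described as centromere-specific. The segments of the NILs were read from the study's supplement.

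Named loci were the 3 longest, the 3 shortest, the 3 farthest from a non-TE locus, that with the most gene models, the 5 largest overlaps with non-TE loci, the longest runs (ties by span), the fullest bins, and those nearest to *ART1* and to the Al resistance genes. The members and lists were chosen with earlier results of these data known. Alternatives for the mark, length, distance, bins and ends of chromosomes were tried, and the gap function was tested on simulated data. The RefSeq table covers another assembly and matched 0 of the 772 loci, so no sequences are shown. Values were computed in Python 3.11.15 (pandas 2.3.3, numpy 2.4.6, scipy 1.17.1) and plotted with matplotlib 3.10.9.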

Additional observations from a re-analysis of the deposited data

How the results depend on the processing

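Of 41 alternative values, 32 stayed within the 95% interval or the spread over chromosomes of the value reported, or within 1.5 times for a count. This tally is no measure of robustness, because some alternatives could hardly change a value. No TE locus was unplaced, so leaving out the unplaced sequences changed nothing. Only 1 Ty1-copia locus has more than 1 gene model, and the choice of gene model left the Ty1-copia values unchanged. The tally also counts the change of sign from 1.21 to -2.91 percentage points, given below, as staying. With loci of at least 1000 bp only, 82.9% of the Ty1-copia loci were marked as expressed. Taking only loci marked as expressed gave a median length of 3969 bp and a ratio to other TE loci of 1.22, where all loci gave 1.32. The median distance to the nearest non-TE locus was 6374 bp between midpoints, 3548 bp when only non-TE loci marked as expressed were counted and 7035 bp for those of the same strand. Its ratio to the median of other TE loci was 0.784 between midpoints, against 0.620 by gaps, and stayed below 1 under all 7 alternatives tried, among them the gene-poor, middle and gene-rich bins, which were chosen after the data were seen. The difference in the share marked as expressed was -2.91 percentage points after weighting by length, also chosen after the data were seen, 4.27 with the description in place of the mark, and 1.21 as reported. Leaving the centromere-specific loci out of the other TE loci, also a later choice, gave a difference within 2 Mb of their median of -3.02 percentage points, against -4.16 with them. With 5% of the chromosome taken at each end, 6.22% of the Ty1-copia loci were in the outer part, and with 20% it was 28.1%, which follows from the width taken, against 7.16% and 28.7% of the other TE loci. No paired analysis was possible because the deposited file holds no values per library, and for the same reason no alternative that leaves out a replicate was run. The list shows positions in Nipponbare only, and loci that differ in Azucena or IR64 were not analysed here.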

Other observations

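The 127 non-TE loci with a Ty1-copia locus in their upstream window were looked through by description, with terms chosen after the data were seen. Loci described only as expressed protein made up 51 of them (40.2%), against 35.2% of all non-TE loci on the chromosomes, and hypothetical proteins 12 (9.45%), against 5.89%. Descriptions with the word kinase were found for 8 (6.30%), against 4.16%, and F-box proteins, which mark other proteins for degradation, for 5 (3.94%), against 1.89%. Disease resistance proteins of the NBS-LRR or NB-ARC kind numbered 2 (1.57%), against 0.965%. The other 3 terms had a lower share than among all non-TE loci, zinc finger with 2 (1.57%, against 1.98%), cytochrome P450 with 1 (0.787%, against 0.901%) and transporter with 1 (0.787%, against 1.43%). As marked by the annotation, 115 of the 127 (90.6%) were expressed, against 93.5% of all non-TE loci. Among the non-TE loci with one of the other TE loci in their upstream window, 90.2% were marked as expressed. These counts are small and are given as values only.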
